A study of Mus musculus with 6 samples.

Results

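The interleukin and interleukin receptor genes were examined for H3K27me3 and H3K4me3 at their promoters in mouse colonic organoids cultured with or without tumor necrosis factor α (TNFα). The group comprised every autosomal protein-coding gene of the GENCODE annotation of GRCm38 whose symbol begins with Il and a digit, apart from Il1rn, Il33, Il25 and Il17rb. This gave 73 of 20780 autosomal protein-coding genes, on 16 chromosomes. Of the 73 members, 35 encode ligands, 33 encode receptor chains and 4 encode decoys, antagonists or binding proteins (Il18bp, Il1f5, Il1r2 and Il22ra2). The remaining member, Il4i1, encodes an IL-4-induced amino acid oxidase. Colonic organoids of wild-type C57BL/6 genotype (wt), labelled as epithelial cells, were compared with wild-type organoids exposed to TNFα at 40 ng/ml for 3 weeks (wt+TNFα). Each condition had 1 H3K27me3 library, 1 H3K4me3 library and 1 input, so no value below carries an error or a p-value. The paper's ChIP-seq methods do not give the number of mice behind the organoids. For mouse numbers the paper points to its source data file.

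Interleukins are secreted proteins that carry signals mainly between leukocytes, stromal cells and epithelium. Most act through receptor chains that recruit Janus kinases and STAT factors (the class I and class II cytokine receptors), whereas the IL-1 family signals through MyD88 and the IL-17 family through the adaptor Act1. In the colon, the epithelium is known mainly as a receiver, with receptors for IL-22, IL-17 and IL-4/IL-13, while lymphocytes and myeloid cells make most of the ligands. H3K4me3 marks active or poised promoters, and H3K27me3, deposited by Polycomb repressive complex 2, marks repressed chromatin.

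A promoter was taken as 1000 bp on each side of every annotated transcript start of a gene, and it was called marked when at least 1 bp lay under a listed peak. The H3K27me3 lists differed in extent, with 30594 peaks over 101.5 Mb of autosomes in wt and 60540 peaks over 227.9 Mb in wt+TNFα. This difference touches each H3K27me3 comparison below, and its part in them was not tested. For the setting called equal covered length, the wt+TNFα list was cut to the autosomal length of the wt list, highest −log10 q first. It kept 7642 wt+TNFα peaks with −log10 q of at least 2.339, but all 30594 wt peaks, down to 0.3015. A promoter with weaker peaks in both lists then counts as marked in wt alone, so such a call does not by itself show a loss. The deposited name of the wt H3K27me3 list mentions a spike-in and that of the wt+TNFα list does not, and whether the lists were made alike cannot be told from the sources used here. The H3K4me3 lists were close in extent, with 11552 and 11894 peaks over 17.8 and 19.5 Mb. No read counts are in the lists, so the depth behind a single promoter is unknown. At the promoters of 9 epithelial marker genes, 7 carried H3K4me3 in wt and 6 in wt+TNFα (Krt20 in wt alone), while Lgr5 and Muc2 carried H3K27me3 and no H3K4me3. None of 10 leukocyte, 5 fibroblast and muscle, 3 endothelial or 2 autosomal neural markers carried H3K4me3 in either condition.

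The promoters of 6 members show the kinds of start that the 73 genes span. They are shown 5′ to 3′ from 250 bases before to 50 bases after the RefSeq start on GRCm38.p6, with each CpG in capitals. Il6st (chr13:112463820-112464119, plus strand) encodes gp130, the signal-transducing chain shared by the IL-6 cytokines, and was under H3K4me3. Il22ra1 (chr4:135727909-135728208, plus strand), the specific chain of the IL-22 receptor, was under H3K4me3 with fewer CpGs. Il6ra (chr3:89913147-89913446, minus strand), the IL-6-binding chain, was under both marks. Il13 (chr11:53634653-53634952, minus strand), a type 2 cytokine, was under H3K27me3 in both conditions, and Il17a (chr1:20730655-20730954, plus strand), the founding IL-17 cytokine, in wt+TNFα alone. Il6 (chr5:30012864-30013163, plus strand), a target of NF-κB in many cells, was under neither mark.
Il6st: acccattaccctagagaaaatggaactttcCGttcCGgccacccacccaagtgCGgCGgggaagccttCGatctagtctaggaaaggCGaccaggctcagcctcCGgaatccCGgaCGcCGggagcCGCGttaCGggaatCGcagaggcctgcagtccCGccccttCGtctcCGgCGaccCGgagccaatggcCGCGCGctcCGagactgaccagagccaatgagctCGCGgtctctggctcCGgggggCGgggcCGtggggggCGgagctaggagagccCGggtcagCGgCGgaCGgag
Il22ra1: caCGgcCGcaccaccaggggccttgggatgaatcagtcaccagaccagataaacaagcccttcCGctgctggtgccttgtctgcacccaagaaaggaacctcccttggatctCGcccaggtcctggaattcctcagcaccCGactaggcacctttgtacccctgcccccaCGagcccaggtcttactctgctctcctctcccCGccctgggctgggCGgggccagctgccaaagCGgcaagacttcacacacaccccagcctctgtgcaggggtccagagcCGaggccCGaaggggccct
Il6ra: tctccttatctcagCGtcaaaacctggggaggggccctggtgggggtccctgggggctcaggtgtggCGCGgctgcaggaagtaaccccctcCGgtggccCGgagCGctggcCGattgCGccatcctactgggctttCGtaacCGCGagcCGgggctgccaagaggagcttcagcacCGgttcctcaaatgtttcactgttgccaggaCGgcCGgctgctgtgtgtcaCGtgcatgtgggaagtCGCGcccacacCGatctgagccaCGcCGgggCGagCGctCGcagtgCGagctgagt
Il13: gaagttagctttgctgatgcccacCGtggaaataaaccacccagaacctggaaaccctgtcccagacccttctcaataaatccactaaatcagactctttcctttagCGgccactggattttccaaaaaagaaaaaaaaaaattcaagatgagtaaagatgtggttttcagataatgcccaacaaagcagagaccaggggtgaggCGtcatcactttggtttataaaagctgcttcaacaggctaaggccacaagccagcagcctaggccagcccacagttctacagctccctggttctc
Il17a: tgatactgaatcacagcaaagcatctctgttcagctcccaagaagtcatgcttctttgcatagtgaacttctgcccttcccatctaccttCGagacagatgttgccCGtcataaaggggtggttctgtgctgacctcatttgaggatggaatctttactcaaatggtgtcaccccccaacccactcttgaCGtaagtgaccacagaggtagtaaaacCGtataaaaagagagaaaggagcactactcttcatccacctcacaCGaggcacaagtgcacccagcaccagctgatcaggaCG
Il6: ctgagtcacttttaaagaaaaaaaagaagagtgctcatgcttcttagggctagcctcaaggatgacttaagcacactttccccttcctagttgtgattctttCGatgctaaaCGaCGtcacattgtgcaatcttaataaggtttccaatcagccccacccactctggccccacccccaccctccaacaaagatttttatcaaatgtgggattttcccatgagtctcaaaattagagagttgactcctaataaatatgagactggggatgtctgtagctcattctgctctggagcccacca
These windows hold 33 CpGs at Il6st, 25 at Il6ra, 11 at Il22ra1, 6 at Il17a, 3 at Il13 and 3 at Il6.

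In wt, 26 members carried neither mark at the promoter, 17 H3K4me3 alone, 28 H3K27me3 alone and 2 both. The shares of members were 35.6%, 23.3%, 38.4% and 2.74%, and those of all genes 31.3%, 46.4%, 16.9% and 5.40%. In wt+TNFα the same classes held 19, 17, 35 and 2 members, or 26.0%, 23.3%, 47.9% and 2.74%, against 26.7%, 45.8%, 20.8% and 6.71% of all genes. The share with neither mark was thus close to that of all genes. An H3K27me3 peak was present at 30 members in wt (41.1%) against 22.3% of all autosomal protein-coding genes, and at 37 members in wt+TNFα (50.7%) against 27.5%. An H3K4me3 peak was present at 19 members in each condition (26%) against 51.8% of all genes in wt and 52.5% in wt+TNFα. H3K27me3 was therefore listed at a larger share of the members than of all genes, and H3K4me3 at a smaller share. Among the 9711 genes with no H3K4me3 peak in either condition, 54 of which were members, H3K27me3 was found at 28 members in wt (51.9%) against 34.3%, and at 35 in wt+TNFα (64.8%) against 43.3%. The higher share of the members depended on weak peaks in wt. When H3K27me3 peaks with −log10 q under 2 were left out, 8 members remained in wt (11%) against 14% of all genes, and 25 in wt+TNFα (34.2%) against 20.1%. The 8 were Il10, Il10ra, Il11, Il11ra1, Il13, Il20ra, Il24 and Il27ra. At equal covered length 18 members were marked in wt+TNFα (24.7%) against 18.4% of all genes, below the 30 of wt.

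**Figure D1:**
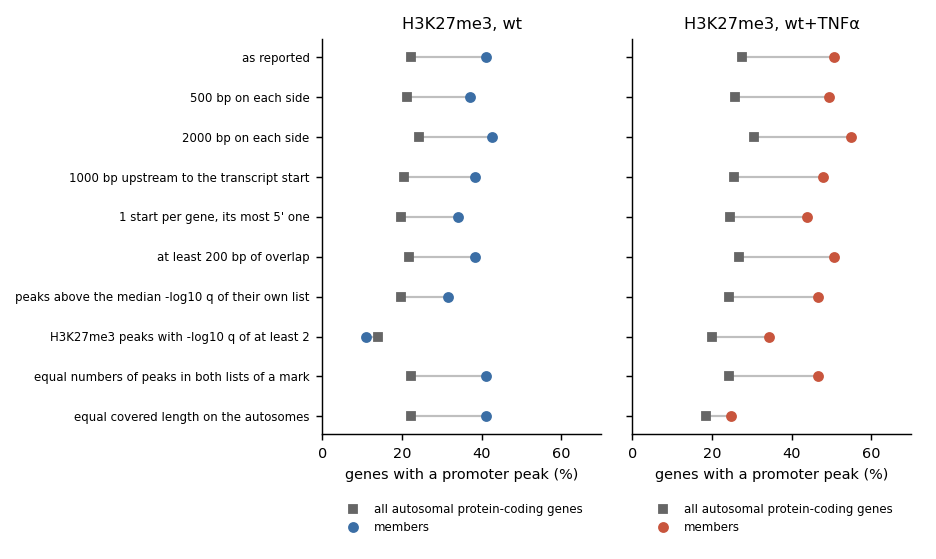
Percentage of the 73 members (circles) and of all 20780 autosomal protein-coding genes (squares) with an H3K27me3 promoter peak in wt (left) and wt+TNFα (right), as reported and under 9 other settings, with 1 library per condition. The members lie above all genes except in wt when peaks with −log10 q under 2 are left out, where they are at 11% against 14%.

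Among the 35 ligands, 15 carried H3K27me3 in wt and 20 in wt+TNFα, where the shares of all genes were 22.3% and 27.5%, and 5 carried H3K4me3, against 51.8% of all genes in wt and 52.5% in wt+TNFα. The median ligand promoter had 0% of its bases under H3K27me3 in wt and 44.8% in wt+TNFα, where the medians over all genes were 0% in both conditions. At equal covered length the ligands marked in wt+TNFα were Il5, Il10, Il11, Il13, Il17b, Il19, Il24, Il27 and Il31. These are fewer than the 15 of wt and too few to lift the median above 0%, and the share of all genes was 18.4%. Without peaks of −log10 q under 2, Il10, Il11, Il13 and Il24 remained in wt, and more ligands in wt+TNFα. The ligands fully covered in both conditions were Il5, Il9, Il10, Il13 and Il31, and at equal covered length Il9 was marked in wt alone. Il4 was covered over 55.4% in wt and 100% in wt+TNFα, and at equal covered length it too was marked in wt alone. Il11, a gp130 cytokine, had the highest H3K27me3 fold enrichment of any member, 3.497 in wt and 3.655 in wt+TNFα, above 97.5% and 98.8% of the peaks of the respective list. Of its promoter bases, 49.98% were covered in each condition. Only the most downstream Il11 start, at chr7:4778141, lay under H3K27me3, and its other starts were under neither mark.

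In wt+TNFα alone, H3K27me3 was listed at the promoter of 10 members (13.7%) against 6.47% of all genes, and in wt alone at 3 members (4.11%) against 1.28%. The 10 were the ligands Il1b, Il2, Il3, Il17a, Il17b, Il20 and Il27 and the receptors Il1rl1, Il1rl2 and Il9r. None of the 10 carried H3K4me3, and all lay among the 26 members with neither mark in wt. Il27, which encodes the p28 chain of IL-27, had the highest fold enrichment of them, 2.46, with 0% of its promoter covered in wt and 44.8% in wt+TNFα. Il17b, an IL-17 family ligand, had a fold enrichment of 2.37 and went from 0% covered in wt to 39.7% in wt+TNFα. Il20, an IL-10 family ligand that acts on epithelium, had 2.04 and went from 0% to 77.8%. The other 4 ligands had lower enrichments, from 1.74 at Il2 to 1.96 at Il17a. Il1rl1, the receptor chain for IL-33, had 2.38 and was covered over 78.4% of its promoter in wt+TNFα against 0% in wt. Il9r, the IL-9 receptor chain, had 2.05 and went from 0% to 100%. Of the 10 calls, those of Il27 and Il1rl1 held under all 9 other settings. When the wt+TNFα list was cut to the covered length of the wt list, keeping the peaks of highest −log10 q, the numbers turned round, with 3 members marked in wt+TNFα alone (Il17b, Il1rl1 and Il27) and 15 in wt alone. The corresponding shares of all genes were 1.25% and 5.16%. Because that cut left the weak peaks in the wt list only, these counts do not show a direction of change. The other way, without peaks of −log10 q under 2, 17 members were marked in wt+TNFα alone (6.81% of all genes) and 0 in wt alone (0.654%).

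The peaks of the 3 members with H3K27me3 in wt alone were narrower than the median of the wt list, 1774 bp. Il1f10, which encodes IL-38, was covered over 69.8% of its promoter in wt and 0% in wt+TNFα, and its wt peak was 1396 bp wide and had an enrichment of 2.09. Il34, a ligand of the CSF1 receptor, went from 17.0% to 0%, and its wt peak had a fold enrichment of 1.998. Of the 5 annotated Il34 starts only the most downstream, at chr8:110742698, lay under this peak, and with 1 start per gene the call was lost. Il18rap, the accessory chain of the IL-18 receptor, went from 9.71% to 0%, with a wt fold enrichment of 2.22, above 70.4% of the wt list. The −log10 q of these peaks was 0.696, 0.480 and 1.12, against a list median of 0.779, and none remained at a −log10 q of at least 2.

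**Figure D2:**
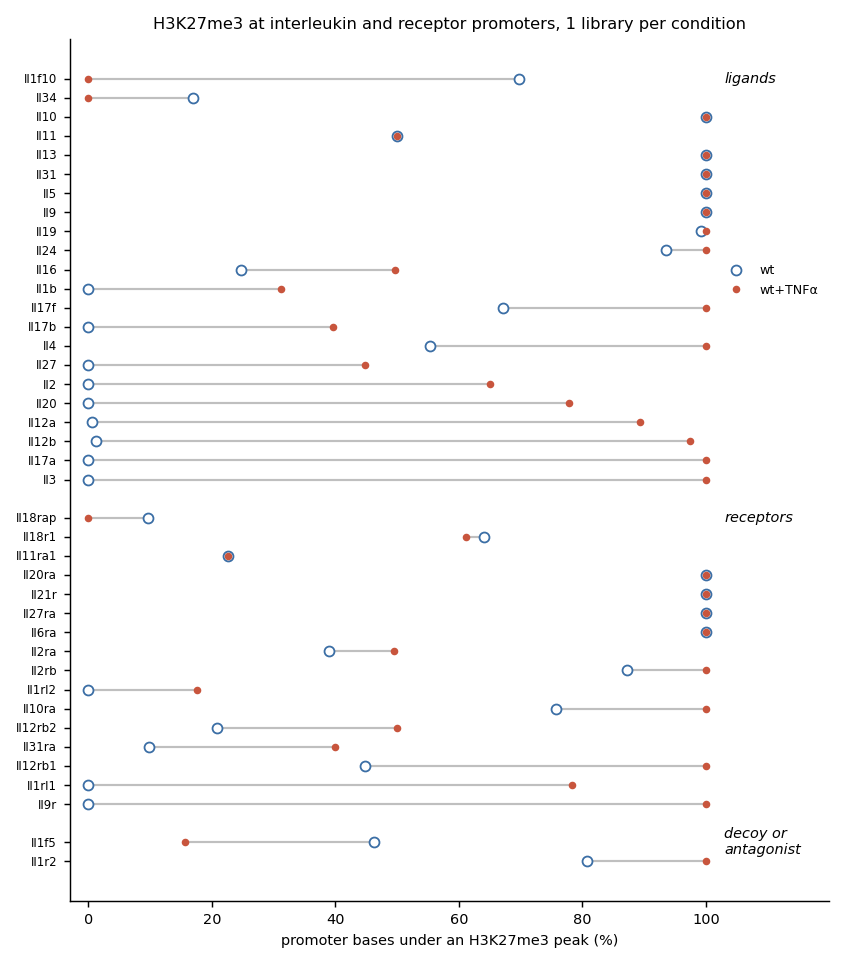
Share of promoter bases under an H3K27me3 peak, in percent, for the 40 members with a peak in either condition (open circles wt, filled circles wt+TNFα, 1 library each), grouped by role. Of the 40 members, 24 have the filled circle further right, 11 have both at the same place and 5 have it further left. The plot shows the lists as deposited, and at equal covered length 9 members gained bases and 16 lost them.

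By bases, 24 members (32.9%) had promoter sequence under H3K27me3 in wt+TNFα that was outside it in wt, against 18.2% of all genes, and 8 (11%) the reverse, against 5.5%. The balance turned at equal covered length, with bases gained at 9 members (12.3%) against 8.66% of all genes and lost at 16 (21.9%) against 8.55%. The covered share was higher in wt+TNFα at 24 members against 17.6% of all genes, and lower at 5 (6.85%) against 3.96%. All of these members lacked H3K4me3. Among the 54 members and 9711 genes without H3K4me3 in either condition, H3K27me3 was listed in wt+TNFα alone at 18.5% of members against 10.2%, and in wt alone at 5.56% against 1.11%. In the same genes, bases were gained at 44.4% of members against 28.5% and lost at 14.8% against 6.43%, and the share was higher at 44.4% against 27.6% and lower at 9.26% against 4.12%. The mean share of the promoter under H3K27me3 over the 73 members was 25.7% in wt and 39.5% in wt+TNFα, against 13.1% and 17.7% over all genes. A fully covered promoter was found at 9 members in wt, compared with 20 in wt+TNFα, and over all 20780 genes at 1290 and 2019. For the 27 members marked in both, the covered share was higher in wt+TNFα at 14, equal at 11 and lower at 2 (Il18r1 and Il1f5), or 51.9%, 40.7% and 7.41%. Over all 4372 genes marked in both the shares were 52.9%, 34.4% and 12.8%, so the members were near the background here. The widest contrasts among these 27, chosen after their values were seen, were at the subunits of IL-12. The promoter of Il12a, which encodes p35, was covered over 0.570% in wt and 89.2% in wt+TNFα, and that of Il12b, which encodes the p40 chain shared with IL-23, over 1.30% and 97.4%. In wt only 28 and 26 bases of these promoters lay under the edge of a peak, and without that contact both would have counted as marked in wt+TNFα alone. Both promoters were marked in wt alone at equal covered length.

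Among the 33 receptor genes, H3K27me3 was listed at 13 in wt, against 22.3% of all genes, and at 15 in wt+TNFα, against 27.5%. In both conditions 13 carried H3K4me3, against 51.8% and 52.5% of all genes. At equal covered length the receptors with H3K27me3 in wt+TNFα were Il1rl1, Il10ra, Il11ra1, Il12rb1, Il12rb2, Il20ra, Il21r, Il27ra and Il31ra, fewer than the 13 of wt. The share of all genes was then 18.4%. Without peaks of −log10 q under 2, Il10ra, Il11ra1, Il20ra and Il27ra remained in wt, and more receptors in wt+TNFα. In wt+TNFα, the next 4 fold enrichments after that of Il11 were at receptors. In wt, Il10ra (2.916) and the ligands Il24 (2.812) and Il13 (2.746) also ranked among the highest. Il11ra1, the IL-11 receptor chain, had a fold enrichment of 3.12 in wt and 3.38 in wt+TNFα over 22.6% of its promoter bases in each. Of its 10 annotated starts, only the most 5′, at chr4:41699989, lay under the peak, and the others were under neither mark. Il20ra, a chain of the IL-20 and IL-24 receptors, had 2.90 and 3.05, and Il27ra, the specific chain of the IL-27 receptor, 2.71 and 3.02, and both promoters were fully covered in both conditions. Il12rb1, the chain shared by the IL-12 and IL-23 receptors, had 2.19 and 2.97, and its covered share was 44.7% in wt and 100% in wt+TNFα. Il11ra2, a near-identical copy of Il11ra1, was listed with no peak, and whether the copies shared reads was not tested, so both are uncertain. Of the 7 receptor genes of the common γ chain and type 2 cytokine group, H3K27me3 was listed at 3 in wt (Il2ra, Il2rb and Il21r) and at 4 in wt+TNFα (Il9r as well), while Il4ra and Il15ra carried H3K4me3 and Il7r neither mark. Il2rb (IL-2 and IL-15 receptor β) was covered over 87.2% and 100%, Il2ra (IL-2 receptor α) over 39.0% and 49.5%, and Il21r over 100% in both. At Il2ra only the most downstream start, at chr2:11679708, lay under H3K27me3, and its other starts were under neither mark. Of the decoys and antagonists, Il1r2, the decoy receptor for IL-1, was covered over 80.7% in wt and 100% in wt+TNFα, and Il1f5, the IL-36 receptor antagonist, over 46.2% and 15.7%. At equal covered length Il2rb, Il2ra, Il1r2 and Il1f5 were marked in wt alone. Il18bp and Il22ra2, soluble binding proteins for IL-18 and IL-22, had no peak of either mark.

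H3K4me3 was carried by the same 19 members in either condition. A peak in wt+TNFα alone was found at 0 members against 1.5% of all genes, and a peak in wt alone at 0 members against 0.741%. The 13 receptors were Il1r1, Il1rap, Il3ra, Il4ra, Il6ra, Il6st, Il10rb, Il15ra, Il17ra, Il17rc, Il17rd, Il17re and Il22ra1. The 5 ligands were Il7, Il11, Il15, Il17d and Il18, and Il4i1 made up the 19.

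In the IL-17 family, without Il17rb and Il25, all 4 receptor genes, Il17ra, Il17rc, Il17rd and Il17re, carried H3K4me3 and no H3K27me3 in both conditions, where H3K4me3 was at 51.8% and 52.5% of all genes and H3K27me3 at 22.3% and 27.5%. Il17ra, the chain common to the IL-17 receptors, had an H3K4me3 fold enrichment of 33.9 in wt and 24.9 in wt+TNFα. Il17rc, its partner for IL-17A and IL-17F, had 18.4 and 16.7. Il17rd had 24.6 and 25.8, and Il17re, the chain for IL-17C, 13.3 and 15.9. Of the 5 ligands of the family, Il17f carried H3K27me3 in wt and Il17a, Il17b and Il17f in wt+TNFα, Il17c carried neither mark, and Il17d carried H3K4me3. At equal covered length H3K27me3 was listed at Il17f in wt alone, at Il17b in wt+TNFα alone and at Il17a in neither condition. Il17d had the highest H3K4me3 fold enrichment of the 19 in wt, 42.3, above 87.6% of the wt list, and 38.6 in wt+TNFα.

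In the IL-10 family, H3K4me3 lay at both chains of the IL-22 receptor. Il10rb, the chain shared by the IL-10 and IL-22 receptors, had a fold enrichment of 33.0 in wt and 42.5 in wt+TNFα, with a peak of 1436 bp and 1651 bp. Il22ra1 had 22.8 and 24.9, with a peak of 1696 bp and 1586 bp. Il10ra, the chain that binds IL-10, carried H3K27me3 instead, over 75.8% of its promoter in wt and 100% in wt+TNFα. The ligands Il10, Il19 and Il24 carried H3K27me3 in both conditions, and Il22 carried neither mark.

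Receptors of the common γ chain and type 2 cytokines were of both kinds. Il4ra, the chain shared by the IL-4 and IL-13 receptors, had an H3K4me3 fold enrichment of 28.4 in wt and 32.0 in wt+TNFα. Il15ra, which presents IL-15, had 34.2 and 28.4. Their ligands differed, since Il15 carried H3K4me3 (26.0 and 28.5) while Il4 and Il13 carried H3K27me3. Il7, a stromal and epithelial cytokine for lymphocytes, had 19.8 and 13.9, and an antisense gene, Gm16685, starts under the same peak. In the IL-1 family, Il1r1 (16.8 and 12.5) and its accessory chain Il1rap (26.8 and 19.2) carried H3K4me3. In the common β chain group, Il3ra, the IL-3 receptor α chain, had 9.34 and 13.7.

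**Figure D3:**
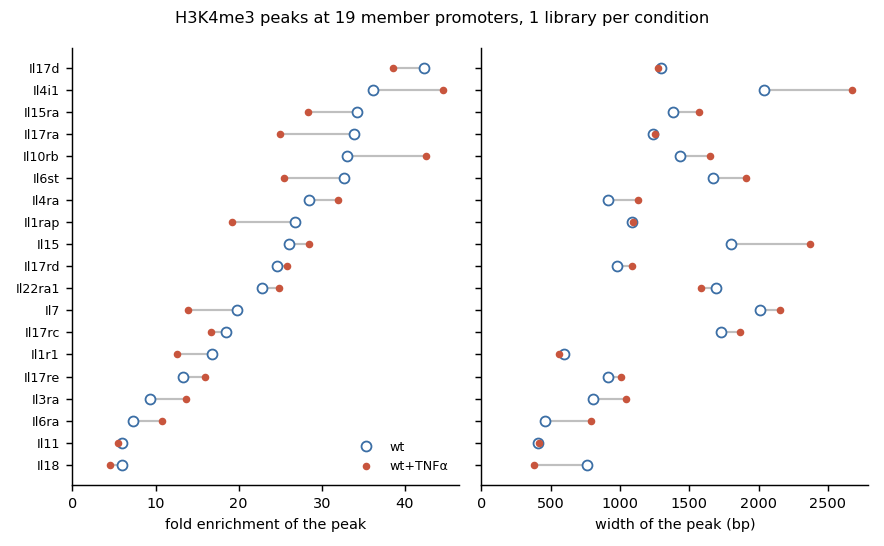
Fold enrichment over the local background (left) and width in bp (right) of the H3K4me3 peak at each of the 19 marked members, ordered by fold enrichment in wt (open circles wt, filled circles wt+TNFα, 1 library each). The wt values run from 42.3 at Il17d to 5.96 at Il18, and 15 of 19 peaks (78.9%) are wider in wt+TNFα, against 75.7% of all genes with H3K4me3 in both conditions.

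The peaks at 15 of the 19 members covered the most 5′ annotated start of the gene in both conditions. At Il17re and Il1r1 a start further downstream was covered. At Il11 the peak lay inside the gene, 802 bp from the nearest start in wt and 789 bp in wt+TNFα, so its H3K4me3 call rests on the promoter width, and under 500 bp on each side it was lost. At Il18 the peak was weak, with a fold enrichment of 5.96 and a width of 761 bp in wt against 4.48 and 381 bp in wt+TNFα, where it lay 32 bp from the nearest start. The peak at Il4i1 also covered the starts of Atf5 and Nup62 and cannot be assigned to Il4i1.

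Within the 19, the H3K4me3 peak was wider in wt+TNFα at 15 members and narrower at 4 (Il17d, Il18, Il1r1 and Il22ra1), or 78.9% and 21.1%. Over all 10604 genes with H3K4me3 in both conditions the strongest promoter peak was wider at 75.7% and narrower at 24.1%, so the members were near the background. Bases were gained at 15 of the 73 members (20.5%) against 42% of all genes and lost at 7 (9.59%) against 21.4%. The covered share was higher in wt+TNFα at 14 members (19.2%) against 37.6% of all genes and lower at 5 (6.85%) against 13.4%. Fewer members than genes at large carried the mark, and among genes with H3K4me3 in both conditions the shares were alike, with bases gained at 78.9% of members against 79.3%, bases lost at 36.8% against 40.5%, and a higher covered share at 73.7% against 70.7%. The count of members that gained bases was 6 when 200 bp were required, against 10.9% of all genes. With whole peaks subtracted it was 0, against 1.88%. The total of sequenced reads that the study gives for H3K4me3 and for input differed between the conditions, and its part in these widths was not tested.

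Il6ra and Il11 were the members under both marks. At Il6ra the H3K27me3 peak covered the whole promoter in both conditions, with a fold enrichment of 2.079 (wt) and 2.102 (wt+TNFα). Inside it lay an H3K4me3 peak 460 bp wide with a fold enrichment of 7.24 in wt, and 792 bp wide with 10.7 in wt+TNFα. Without peaks of −log10 q under 2 the H3K27me3 call was lost in wt, and at equal covered length both marks were lost in wt+TNFα. The start of the antisense gene Gm42809 lay under this peak as well. Its partner Il6st carried H3K4me3 alone, with fold enrichments of 32.6 and 25.5.

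Neither mark was listed in either condition at 16 of 73 members, and at 5394 of all 20780 genes. These included Il1a, Il6, Il23a, Il21, Il22 and Il17c among the ligands, Il7r, Il5ra, Il20rb and Il23r among the receptors, and the IL-36 genes Il1f6, Il1f8 and Il1f9. At 10 of the 16, no H3K27me3 peak touched the gene in either condition. This was not counted over all genes, so whether it is unusual is unknown. Il6, singled out after its values were seen, had 0% of its gene span under H3K27me3 in wt and 57.4% in wt+TNFα, while its promoter stayed outside the peak. At Il1a, 22.0% of the gene span was covered in wt and 0% in wt+TNFα.

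Of the members, 36 lie in 13 clusters in which neighbours are within 500 kb of each other. H3K27me3 covered a larger part of the cluster in wt+TNFα in 12 of the 13, and 0% in both conditions between Il17re and Il17rc, where H3K4me3 covered 13.6% and 14.6%. At equal covered length, an alternative chosen after seeing the data, it was larger in wt+TNFα in 6. The cluster of Il24, Il20, Il19 and Il10 on chromosome 1 (chr1:130882074-131024974) had the largest covered share, 35.7% in wt and 76.5% in wt+TNFα, and 69.3% in wt+TNFα at equal covered length. Its 17 wt peaks were at most 10982 bp wide, whereas 7 peaks covered it in wt+TNFα, among them one of 59757 bp over Il19 and one of 32443 bp over Il10. No H3K4me3 peak lay in this cluster. Il17a and Il17f (chr1:20730905-20790617) were covered over 27.6% in wt and 61.9% in wt+TNFα, but 0% at equal covered length. In the type 2 cytokine cluster of Il4, Il13 and Il5 (chr11:53602982-53725106) the shares were 22.2%, 36.1% and, at equal covered length, 24%.

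The IL-1 receptor cluster (chr1:40074079-40551705) was divided. Il1r1 carried H3K4me3 near its middle, with no H3K27me3 at its promoter in either condition. Il1r2 at one end and Il18r1 towards the other carried H3K27me3 in both conditions, Il1rl1 and Il1rl2 between them in wt+TNFα alone, and Il18rap at the far end in wt alone. At equal covered length Il1r2, Il18r1 and Il18rap were marked in wt alone, Il1rl1 in wt+TNFα alone and Il1rl2 in neither. H3K27me3 covered 9.75% of the cluster in wt, 29.1% in wt+TNFα and 7.12% in wt+TNFα at equal covered length. Neighbouring receptors of unlike class were also found elsewhere. Il4ra (H3K4me3) lies beside Il21r (H3K27me3), Il15ra (H3K4me3) beside Il2ra (H3K27me3), and Il6st (H3K4me3) beside Il31ra (H3K27me3). In these clusters H3K27me3 covered 29.5% and 43.5%, 9.52% and 19.8%, and 11.01% and 36.0% in wt and wt+TNFα, respectively. At equal covered length the wt+TNFα shares were 36.5%, 7.73% and 33.4%, so that of Il2ra and Il15ra was then below wt.

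**Figure D4:**
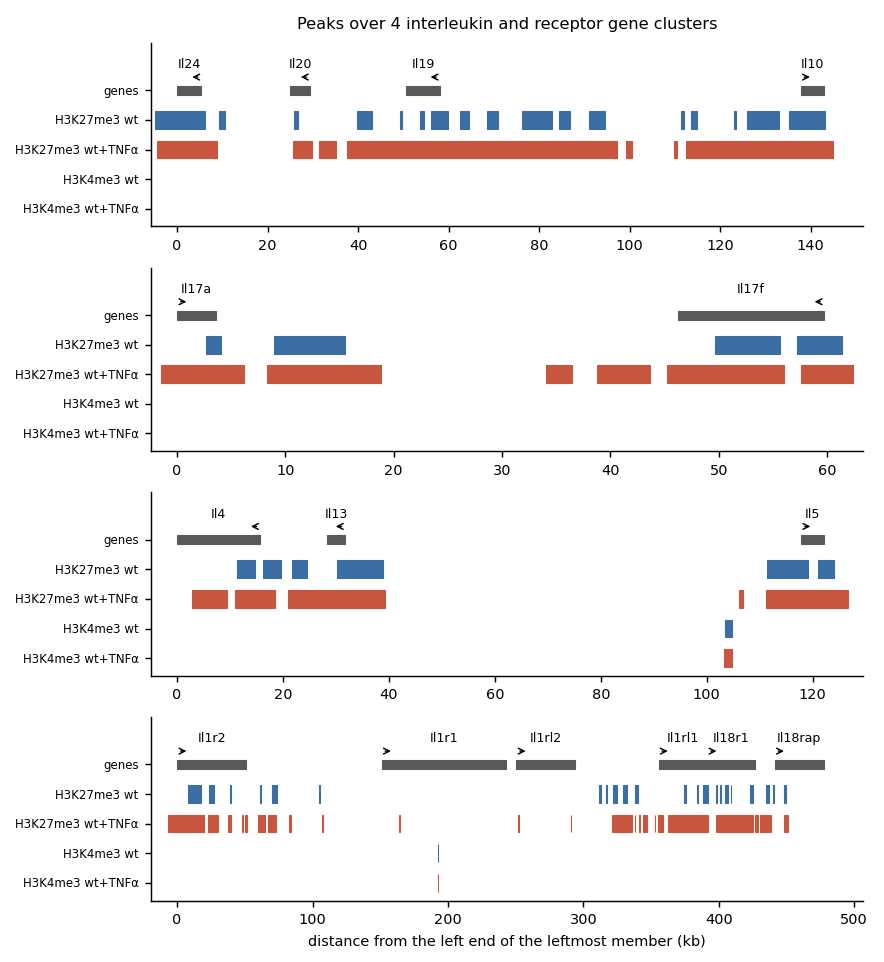
Peaks of H3K27me3 and H3K4me3 in wt (blue) and wt+TNFα (red) over 4 gene clusters, with distance in kb from the left end of the leftmost member. Grey bars are the members' gene spans and arrows give the direction of transcription. In the cluster of Il24 to Il10, 17 separate wt peaks stand against 7 in wt+TNFα, the widest of them 59757 bp and 32443 bp.

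Member starts under H3K27me3 alone or H3K4me3 alone were poorer in CpG than all starts of the same class. In the 300 bases around each start, from the reference genome, the observed over expected CpG ratio had a median of 0.244 at the 54 member starts under H3K27me3 alone in wt, against 0.519 at all such starts. The share of these starts with a ratio of at least 0.6 was 3.70% for the members and 41.4% for all genes. At the 62 member starts under H3K4me3 alone the median was 0.584 against 0.823. At starts under neither mark the medians were alike, 0.230 and 0.231. In wt+TNFα, the median at the member starts under H3K27me3 alone was 0.230 against 0.418. Starts of one gene overlap and share bases, so these are descriptions. The sequences above give examples, with ratios of 0.943 at Il6st, 0.769 at Il6ra, 0.373 at Il22ra1, 0.3498 at Il17a, 0.214 at Il6 and 0.193 at Il13.

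**Figure D5:**
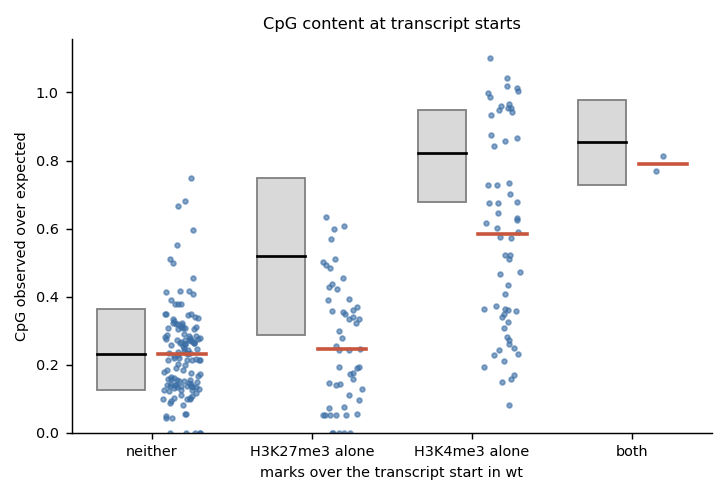
Observed over expected CpG ratio in the 300 bases around a transcript start, by the marks over the start in wt. Grey boxes give the quartiles and black lines the median over all autosomal protein-coding genes, points are single member starts and red lines their medians, 0.244 against 0.519 under H3K27me3 alone.

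The same windows were searched on both strands for 3 forms of the NF-κB motif and for the AP-1 motif TGACTCA, whose reverse complement is TGAGTCA. The first form was found at 0 members and at 0.361% of all genes, and the second at 1 member (Il16, 1.37%) against 0.2695%. The third was found at 2 members (Il4ra and Il17re, 2.74%) against 1.07% of all genes. These counts hold for the 3 forms only, and other variants of the NF-κB motif were not searched for. The Il6 window printed above holds letters close to the second form that none of the 3 can match. A window without a match may therefore still hold an NF-κB motif. The AP-1 letters were found in a window of 17 members (23.3%) against 12.7% of all genes, and at 9.84% of member starts against 4.36% of all starts. Among the 17 were Il6, Il11, Il1a, Il1b and Il23a. A match describes the letters alone.

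A list of 30 genes of interleukin signalling, chosen with earlier results of these data known, was for the most part under H3K4me3. This mark lay at 25 of the 30 genes in wt and at 26 with TNFα, against 51.8% and 52.5% of all genes. They included the kinases Jak1, Jak2, Jak3 and Tyk2, the transcription factors Stat3 and Stat6, and the adaptors Myd88, Traf6 and Traf3ip2, which encodes Act1. H3K27me3 lay at 7 in wt and 10 in wt+TNFα, near the shares of all genes, 22.3% and 27.5%. In wt+TNFα alone it lay at Socs2 and Socs3, feedback inhibitors of STAT signalling with an H3K4me3 peak in both conditions, and at Ebi3, the partner chain of Il27. Socs3 was covered over 27.8% of its promoter with a fold enrichment of 2.87, and Socs2 over 77.7% with 3.11. The H3K4me3 share was 39.5% in wt and 18.1% in wt+TNFα at Socs2, and 61.7% and 58.4% at Socs3. H3K27me3 was present in both conditions at Stat4, Csf2rb, Tslp, Irak3, Tollip, Lifr and Osmr. At Tollip it covered only 1.29% of the promoter in wt, against 31.4% in wt+TNFα. Of the genes without H3K4me3 in wt, Osmr, the oncostatin M receptor that pairs with Il6st, was listed with an H3K4me3 peak in wt+TNFα (fold enrichment 6.91), and Stat4, Csf2rb, Ebi3 and Tslp had none in either condition.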

How the data were processed

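ChIP-seq peak lists were used for H3K27me3 and H3K4me3, 1 library per condition and mark, and the inputs entered only through the authors' peak calls. Samples were grouped by the sample titles. After trimming with fastp, the authors mapped the reads with BWA (2.2) to the mouse build GRCm38 (mm10), took out duplicates with SAMtools (1.11) and regions on the blacklist, and called narrow (H3K4me3) or broad (H3K27me3) peaks against the input with MACS2 (2.1.0 per the submitters' processing notes, another version in the reporting summary). In the deposited lists the fold enrichment is a ratio of ChIP signal to local background. Each deposited p-value and q-value is given as −log10, and for a broad peak MACS2 gives an average over the region, so a value under 2 does not show that a call missed its threshold. These values were computed separately for each library, so fold enrichments of wt and wt+TNFα are given side by side and ordered only within a list, whereas positions, widths and covered bases were compared between lists. The names of 3 of the 4 lists mention a spike-in that the methods do not describe.

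Peaks were merged, converted to 1-based positions, and laid over GENCODE promoters. Bases present in one condition alone were found by subtraction. The steps were tested on simulated peaks. Calculations used Python (3.11.15) and numpy (2.4.6), and plots matplotlib (3.10.9). RefSeq promoters matched 57 of 73 members. CpG ratios and motifs were read from GRCm38.p6 at every GENCODE start. The labels give a depth of 40 M reads for input, 40 M for H3K4me3 and 60 M for H3K27me3. The totals of sequenced reads in the study's reporting summary differ from these. They were higher in wt+TNFα for input and H3K4me3, and close between conditions for H3K27me3. The H3K27me3 peaks were called against the same inputs, and the part of input depth in their extent was not tested. The lists hold no read counts, so depth per promoter is unknown, and with 1 library no test across replicates was made. Members and gene lists were chosen with earlier results of these data known. Named individually were members with H3K4me3 in either condition, those with H3K27me3 in wt alone, the 5 with the highest wt+TNFα H3K27me3 enrichment among members marked in wt+TNFα alone and among those marked in both, members of clusters, and signalling genes with H3K27me3 or without H3K4me3. Other genes named, such as Il2rb, Il9, Il10ra, Il12a, Il12b, Il31 and signalling genes with H3K4me3 alone, were chosen after their values were seen. Alternatives were promoters of 500 bp, 2000 bp or 1000 bp upstream only, 1 start per gene, 200 bp of overlap, filters on −log10 q, equal numbers of peaks, equal covered length and whole-peak subtraction.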

Additional observations from a re-analysis of the deposited data

How the results depend on the processing

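Of 112 counts recomputed under other settings, 85 stayed within 1.5 times the reported value. Shares in brackets are those of all genes under the same setting. Requiring −log10 q of at least 2 for H3K27me3 gave 8 members in wt (14%), 17 in wt+TNFα alone (6.81%), 0 in wt alone (0.654%) and 0 that lost bases (2.18%). Equal covered length gave 18 members with H3K27me3 in wt+TNFα (18.4%), 3 in wt+TNFα alone (1.25%), 15 in wt alone (5.16%), 9 that gained bases (8.66%) and 16 that lost them (8.55%), 3 with H3K4me3 in wt alone (4.22%), and a larger H3K27me3 share in wt+TNFα in 6 clusters. Peaks above the median −log10 q gave 1 member with H3K27me3 in wt alone (1.29%), 4 that lost H3K27me3 bases (4.24%), 7 and 8 with H3K4me3 in wt (31.4%) and wt+TNFα (32.3%), 1 with H3K4me3 in wt+TNFα alone (3.26%), 7 that gained (25.4%) and 1 that lost H3K4me3 bases (12.6%). Whole-peak subtraction gave 7 members for H3K27me3 bases gained (7.06%), 4 for bases lost (1.54%), and 0 in H3K4me3 for gained (1.88%) and lost (0.914%). With 1 start per gene, 5 members lost H3K27me3 bases (3.72%). An overlap of 200 bp gave 1 member with H3K4me3 in wt+TNFα alone (1.48%), 6 that gained (10.9%) and 1 that lost H3K4me3 bases (2.48%). For H3K4me3 in wt alone, promoters upstream only gave 1 member (0.722%) and equal numbers of peaks 2 (0.929%). For single promoters, the difference in covered share (wt+TNFα minus wt, percentage points) kept its direction in 373 of 472 values and reversed in 20. At equal covered length it reversed to -0.57 at Il12a, -1.30 at Il12b, -24.8 at Il16, -67.1 at Il17f, -80.7 at Il1r2, -39.0 at Il2ra, -87.2 at Il2rb and -55.4 at Il4 for H3K27me3, and to -22.6 at Il6ra and -4.97 at Il11 for H3K4me3. With equal numbers of peaks it reversed to -4.97 at Il11 (H3K4me3) and -5.08 at Il16 (H3K27me3), and above the median −log10 q to -5.08 at Il16. At −log10 q of at least 2 it reversed to 61.2 at Il18r1 (H3K27me3). Other promoter definitions reversed H3K4me3 to -0.87 (upstream only) and -2.15 (1 start) at Il17rc, 1.83 at Il1r1 (upstream only), -0.42 at Il1rap (500 bp and upstream only) and 1.67 at Il7 (2000 bp). The cause of these changes was not tested, except that the cut lists hold fewer peaks by construction. No paired analysis was possible because each condition had 1 library per mark.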
